A study of Mus musculus with 9 samples.

Results

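Tbx20 encodes T-box transcription factor 20, a DNA-binding protein best known from the developing heart, and it was 1 of the 20087 named genes measured here in whole mouse morulae. It was found by its gene name in the deposited table and followed across all 9 libraries. It was selected on its normalised counts in these same libraries, high in control embryos and low after knockdown of Hdac1 and Hdac2, so its own levels and differences are given as a description, with no test. Every embryo was of the B6D2F1 background, was injected as a zygote with siRNA and was collected at E2.75, in pools of 60. The control group, NC, received a nonspecific siRNA and is labelled wild type. The Hdac1/2 cKD group received siRNA against Hdac1 and Hdac2, 2 histone deacetylases, and the Sin3a KD group received siRNA against Sin3a, a scaffold protein of the Sin3 corepressor complex that carries Hdac1 and Hdac2. Each group had 3 libraries of polyadenylated RNA. There was no uninjected group, knockdown by siRNA leaves part of the target RNA, and nothing in the labels says that the pools of a group came from separate injection days or parents, so p-values measure only the spread between these pools.

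T-box factors share a DNA-binding domain, the T-box, and act as activators, repressors or both. In the mouse heart Tbx20 works with Gata4, Gata5, Nkx2-5 and Tbx5 on cardiac genes, it restrains Tbx2 in the chamber muscle, and it can recruit TLE (Groucho) corepressors, which in turn bind histone deacetylases. BMP ligands, acting through receptor-regulated SMAD proteins, are among the signals that switch Tbx20 on in heart-forming mesoderm. The morula is the stage at which outer and inner cells of the embryo begin to separate, before any mesoderm or heart exists.

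Tbx20 (ENSMUSG00000031965.15) lies on the reverse strand of chromosome 9 at 24718138 to 24774303 (GRCm38, GENCODE vM21), and no other annotated gene overlaps it. The annotation gives it 5 transcripts, of which 3 are protein coding, and the longest has 8 exons and 9091 bases. The deposited values are per gene, so they do not tell these transcripts apart. A promoter of Tbx20 is printed to show the sequence at an annotated start of the gene, with CpG dinucleotides, which are more frequent in it than in most promoters, in capitals; whether the RNA of these embryos starts there was not measured. The promoter of Cat, the catalase gene, follows it; Cat was chosen after its values were seen, as the gene among the 10 most similar to Tbx20 across the libraries whose level in Hdac1/2 cKD, as a share of NC, came closest to that of Tbx20. Both run 5′ to 3′ from 250 bases before to 50 bases after a RefSeq transcription start (GRCm38.p6), chr9:24774254-24774553 for Tbx20 and chr2:103485104-103485403 for Cat, each on the reverse strand.
Tbx20: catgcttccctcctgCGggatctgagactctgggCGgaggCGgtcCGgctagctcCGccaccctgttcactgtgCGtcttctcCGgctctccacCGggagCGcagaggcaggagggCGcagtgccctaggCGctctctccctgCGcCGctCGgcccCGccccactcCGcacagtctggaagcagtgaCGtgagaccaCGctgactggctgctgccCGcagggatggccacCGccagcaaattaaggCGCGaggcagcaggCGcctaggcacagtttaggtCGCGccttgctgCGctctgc
Cat: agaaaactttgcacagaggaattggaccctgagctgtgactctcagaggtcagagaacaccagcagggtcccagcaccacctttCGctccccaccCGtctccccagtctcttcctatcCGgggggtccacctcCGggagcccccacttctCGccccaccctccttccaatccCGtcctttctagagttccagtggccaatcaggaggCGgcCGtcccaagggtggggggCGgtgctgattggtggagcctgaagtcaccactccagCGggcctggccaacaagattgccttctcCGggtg
The Tbx20 promoter held 26 CpG dinucleotides, against a median of 7 over the 32851 promoters of this length in RefSeq, 83.1% of which held fewer. Its GC content was 68.3%, against a median of 52.7%. The promoter of Cat held 11 CpG at a GC content of 62.0%. On either strand, the Tbx20 window held 2 matches to the Sp1 hexamer GGGCGG (reverse complement CCGCCC), each of which contains a CpG, and 35.7% of all promoters held at least 1. It held no match to the T-box core GTGTGA (found in 14.5% of all promoters), to TATAAA (13.6%), to the TEAD motif GGAATG (14.7%) or to the GATA motif AGATAA (11.2%); these letters alone say nothing of whether a factor binds.

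Before the results for Tbx20, 3 features of the libraries bear on them. Hdac1 RNA averaged 16.9% and Hdac2 RNA 13.3% of the NC mean in Hdac1/2 cKD, and Sin3a RNA averaged 29.0% of the NC mean in Sin3a KD. In Sin3a KD, which was not targeted at it, Hdac1 was also at 34.3% of NC, while Hdac2 was at 90.1%. In Hdac1/2 cKD, Sin3a RNA averaged 138% of the NC mean. The part of these Hdac1 and Sin3a levels in any result was not tested. NC replicate 3 stood apart, with the lowest estimated depth (8.37 M reads, against 10.3 M to 16.8 M in the others) and the most genes at 0 (28.4%, against 13.2% to 23.4%). NC libraries were sequenced on lanes 5, 2 and 3, Hdac1/2 cKD on lanes 2, 2 and 3, and Sin3a KD on lanes 4, 3 and 3.

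Tbx20 was well above background in the control morula, was at a similar or slightly higher level after Sin3a knockdown, and was several-fold lower after Hdac1/2 knockdown. In NC, replicates 1, 2 and 3 had 3013.0, 2599.8 and 2483 normalised counts, that is, gene-level read counts divided by a normalisation factor, with a mean of 2699 ± 278 (SD, n = 3). In Hdac1/2 cKD the values were 659.8, 762.8 and 616.6, with a mean of 679.7 ± 75.1 (SD, n = 3). In Sin3a KD they were 3261, 3043 and 3009, with a mean of 3104 ± 137 (SD, n = 3). The highest Hdac1/2 cKD library lay far below the lowest library of either other group, whereas NC and Sin3a KD overlapped, since NC replicate 1 was above Sin3a KD replicate 3. In order of mean level the groups thus ran Sin3a KD, NC and Hdac1/2 cKD, and in normalised counts Sin3a KD and NC were not fully separated.

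**Figure D1:**
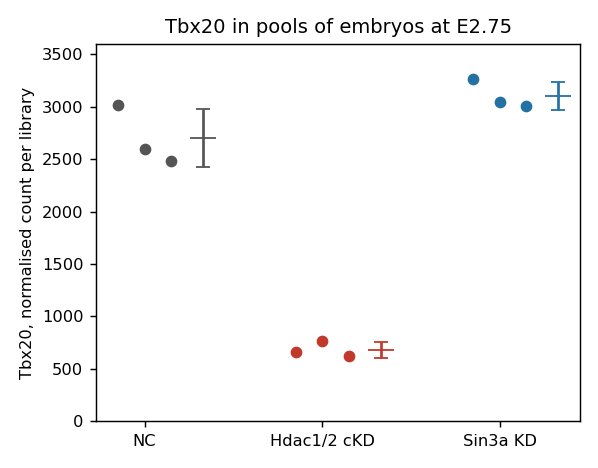
Tbx20 normalised counts in each of the 9 libraries (points) with the group mean and SD (horizontal mark and whiskers), by group. The 3 Hdac1/2 cKD libraries sit between 616.6 and 762.8, all below the NC and Sin3a KD libraries, which lie between 2483 and 3261 and overlap.

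Hdac1/2 cKD embryos held 25.2% of the NC mean of Tbx20, which is 3.97-fold lower, and Sin3a KD embryos 115%. Differences from here on are given on the log2(normalised count + 1) scale. On it, Hdac1/2 cKD differed from NC by -1.99 (SE 0.12), Sin3a KD from NC by 0.21 (SE 0.12), and Hdac1/2 cKD from Sin3a KD by -2.19 (SE 0.12). The differences from NC share the NC libraries. These SEs come from the limma fit, take no account of how Tbx20 was selected, and are not used as a test. Without NC replicate 3 the first 2 differences were -2.05 and 0.15. Within lane 2, Hdac1/2 cKD stood at 27.4% of NC (2 libraries against 1), and within lane 3 at 24.8% (1 against 1). Within lane 3, Sin3a KD stood at 122% of NC (2 libraries against 1). In this bulk RNA from whole embryos, fewer cells that hold Tbx20 RNA and less Tbx20 RNA per cell cannot be told apart. RNA was added before extraction, per the labels, but no entry for it was used here, so values are relative to the RNA of each library and not per embryo. As a share of each library's own total (CPM), Tbx20 was at 206 ± 16.6 CPM in NC, 56.0 ± 5.44 in Hdac1/2 cKD and 253 ± 11.6 in Sin3a KD (SD, n = 3 each). On this scale NC and Sin3a KD did not overlap, with the highest NC library at 224 CPM and the lowest Sin3a KD library at 242 CPM. The share of all genes without overlap was not counted on this scale.

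The spread of Tbx20 between replicates was near that of other genes at its level in NC, wider in Hdac1/2 cKD and narrower in Sin3a KD. Among the 2394 tested genes with a mean of 1000 to 5000 normalised counts, the median coefficient of variation was 11.4% in NC, 7.20% in Hdac1/2 cKD and 8.31% in Sin3a KD, and that of Tbx20 was 10.3%, 11.0% and 4.42%. Per kilobase of its longest transcript, the level of Tbx20 was 297 normalised counts in NC, 74.8 in Hdac1/2 cKD and 341 in Sin3a KD. That placed it above 77.2% of 12752 of the tested genes in NC and 79.9% in Sin3a KD, but above 50.7% in Hdac1/2 cKD, where the median of these genes was at 72.0. On this scale, which takes the longest transcript as the length, the RNA left in Hdac1/2 cKD was therefore close to the median of these tested genes, not near 0.

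**Figure D2:**
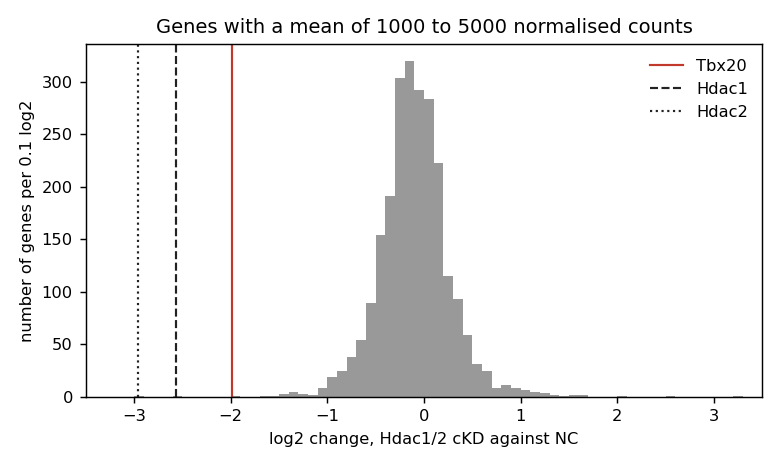
Histogram of the difference between Hdac1/2 cKD and NC, in log2(normalised count + 1), over the 2394 tested genes with a mean of 1000 to 5000 normalised counts, with lines at Tbx20, Hdac1 and Hdac2. Tbx20, at -1.99, sits left of nearly all genes, and only Hdac1 and Hdac2 lie further left.

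Set beside all 13343 genes tested, of which 15.6% were called between Hdac1/2 cKD and NC (7.81% higher and 7.8% lower, or 1042 and 1041 genes, against 1386 and 675 with libraries scaled to equal totals), the Tbx20 difference ranked as the 81st lowest. Groups that did not overlap, as for Tbx20 in this comparison, were found for 33.1% of the tested genes; the share was 27.1% for Sin3a KD against NC and 39.7% for Hdac1/2 cKD against Sin3a KD. Among the 2394 genes of a like level it was the 3rd lowest, behind the siRNA targets Hdac2 and Hdac1. The median difference of these genes was -0.11, and the lowest 1% began at -1.01. After Tbx20 came Uhmk1, a kinase gene, at 31.5% of the NC mean, then Arhgap18 at 34.8%, and Hiatl1 at 35.6%. These ranks use the contrast that picked Tbx20 and are a description only.

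No other tested T-box gene was lower by as much in Hdac1/2 cKD. Of 16 further family members, 15 were in the table and 9 passed the filter on low values (at least 10 normalised counts in at least 3 of the 9 libraries). In Hdac1/2 cKD against NC, 2 of these 9 rose and 1 fell, beside 7.81% and 7.8% of all tested genes. The median difference was 0.55 against 0.03 over all tested genes. Tbx15 passed the filter only through its Hdac1/2 cKD libraries, where it is high, so this median is not read as a trend of the family. With a filter on a mean of at least 50, 3 of the 9 were tested, of which 1 rose and 1 fell. In Sin3a KD against NC, where 7.96% of all genes were called (3.6% higher and 4.36% lower, or 480 and 582 genes, against 741 and 425 with equal totals), limma called 0 of the 9 (1 at an unadjusted p below 0.05), with a median of 0.32 against 0.03. In Hdac1/2 cKD against Sin3a KD, where 17.3% of all genes were called (8.49% higher and 8.78% lower), 1 of the 9 fell and none rose. These are counts over 9 genes only.

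Tbx3 was the most abundant family member at this stage. It encodes a T-box repressor that helps maintain pluripotent cells, and it lies on chromosome 5 at 119670669 to 119684724. Its NC libraries had 11386, 9089 and 8706 normalised counts, its Hdac1/2 cKD libraries 6534, 6493 and 8135, and its Sin3a KD libraries 11536, 10549.7 and 11596. All 3 Hdac1/2 cKD libraries were below every other library, and NC and Sin3a KD overlapped, which is the same order of groups as for Tbx20 but with a smaller gap. Such a lack of overlap was common: it was found for 33.1% of all tested genes in Hdac1/2 cKD against NC and for 39.7% against Sin3a KD. Tbx3 fell by 0.46 against NC (SE 0.12, adjusted p = 0.0165, limma) and by 0.68 against Sin3a KD (SE 0.12, adjusted p = 0.00153, limma). The first of these calls was lost without NC replicate 1 (adjusted p = 0.0613), Hdac1/2 cKD replicate 1 (0.0744) or Hdac1/2 cKD replicate 2 (0.0768). Sequencing lane as a factor in the fit (adjusted p = 0.0905), equal totals (0.0531) and leaving out trend and robust variances (0.0997) ended it too, while the call against Sin3a KD held under each of these. Per kilobase, the level of Tbx3 in NC, 1952 normalised counts, was well above the 297 of Tbx20.

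Mga, which encodes a large protein with both a T-box and a MAX-binding domain and takes part in a Polycomb repressive complex, went the other way. Its values were 3269, 2829 and 2012 in NC, 4253, 4587 and 3533 in Hdac1/2 cKD, and 3288, 3360 and 3217 in Sin3a KD. The Hdac1/2 cKD libraries were the highest 3 of the 9, and 33.1% of all tested genes had no overlap between Hdac1/2 cKD and NC. Mga rose by 0.63 against NC (SE 0.15, adjusted p = 0.0148, limma), a call lost without Hdac1/2 cKD replicate 1 (adjusted p = 0.0561) or replicate 2 (0.0676), and differed from Sin3a KD by 0.32 (adjusted p = 0.184). Per kilobase, its NC level of 194 was the nearest in the family to that of Tbx20.

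Tbx2, which Tbx20 keeps low in heart chamber muscle, was scarce in every library. It had 11.9, 7.40 and 6.22 normalised counts in NC, 27.6, 24.3 and 46.5 in Hdac1/2 cKD, and 43.4, 15.1 and 24.6 in Sin3a KD. All 6 knockdown libraries were above the NC libraries. No overlap with NC was found for 33.1% of all tested genes in Hdac1/2 cKD and 27.1% in Sin3a KD. Tbx2 rose by 1.82 in Hdac1/2 cKD (SE 0.58, adjusted p = 0.0472, limma), and the difference in Sin3a KD was 1.52 (SE 0.58, adjusted p = 0.123). The call did not hold when any 1 library other than Sin3a KD replicate 2 was left out (adjusted p = 0.053 to 0.185), nor with lane as a factor (0.0723). Tbx15, a T-box gene of skeletal and skin development, had 11.0, 1.72 and 2.53 in NC, 97.9, 16.7 and 20.5 in Hdac1/2 cKD, with 3.07 to 11.2 in Sin3a KD; its difference in Hdac1/2 cKD was 2.79 (SE 0.90, adjusted p = 0.0515, limma) and passed without NC replicate 1 (adjusted p = 0.0379) and with equal totals (0.0452).

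The 5 remaining tested T-box genes were low and passed no test. Eomes, a T-box factor of trophoblast and mesendoderm, ranged from 27.5 to 153 normalised counts over the 9 libraries, with differences of 0.67 in Hdac1/2 cKD and 0.32 in Sin3a KD against NC (adjusted p = 0.443 and 0.762). Tbx1 had 26.3 to 36.2 in NC and 39.6 to 47.9 in the 6 knockdown libraries. Tbx5, the partner of Tbx20 in the heart, had 3.52 to 23.5, Tbx6, of paraxial mesoderm, 17.9 to 42.9, and Tbx18, of the epicardium, 11.8 to 131. Brachyury (T), Tbr1, Tbx4, Tbx19, Tbx21 and Tbx22 did not pass the filter, with at most 14.6 in any library, and Tbx10 was not listed. Tbx20, Tbx3 and Mga were thus the abundant T-box genes of these embryos.

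**Figure D3:**
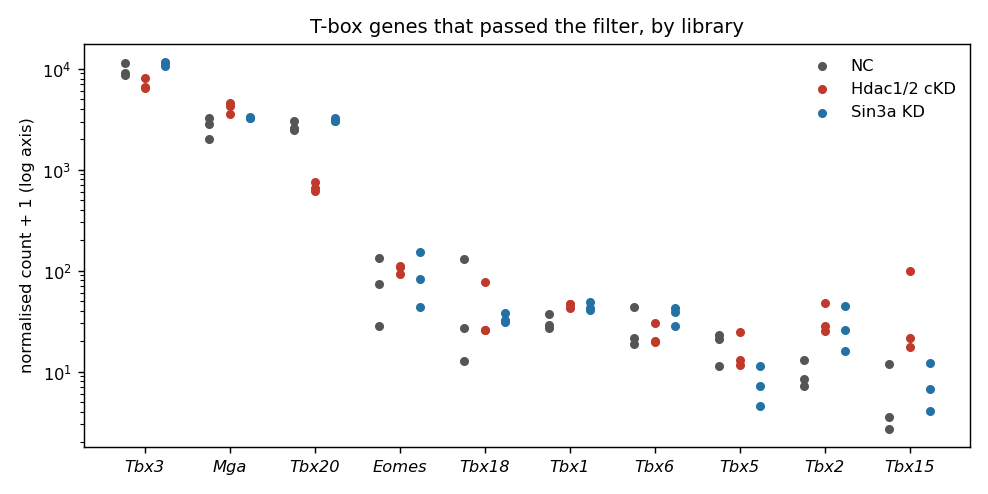
Normalised counts per library (points, log axis of value + 1) of Tbx20 and the 9 other tested T-box genes, by group. Tbx3, Mga and Tbx20 stand above the rest, and Tbx20 is the one with the widest gap between Hdac1/2 cKD and both other groups among these 3.

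Genes that act with Tbx20 in the heart were taken as 3 lists: transcription factors and their partners, TLE corepressors, and BMP and SMAD signaling. Of the 56 genes, 54 were in the table and 40 were tested. In Hdac1/2 cKD against NC 4 rose and 6 fell (background 7.81% and 7.8%), with a median difference of 0.08 against 0.03 over all genes. In Sin3a KD against NC 2 rose and 3 fell (background 3.6% and 4.36%), with a median of 0.07 against 0.03. In Hdac1/2 cKD against Sin3a KD 4 rose and 5 fell (background 8.49% and 8.78%), with a median of 0.05 against 0.01. The lists as a whole therefore moved in no single direction. The 10 calls in Hdac1/2 cKD against NC became 6 without Hdac1/2 cKD replicate 2 or replicate 3, and the 5 in Sin3a KD against NC became 2 without Sin3a KD replicate 1 or replicate 3.

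The TLE corepressors bind histone deacetylases, and Tbx20 can recruit them. In Hdac1/2 cKD all 4 tested members passed the test against NC, 2 upward and 2 downward, beside 15.6% of all tested genes. Tle4 had 3366, 3401 and 2649.5 normalised counts in NC, 2249, 1861 and 2080.5 in Hdac1/2 cKD, and 4351, 3948 and 4035 in Sin3a KD. It fell by 0.60 against NC (SE 0.12, adjusted p = 0.00393, limma) and by 1.00 against Sin3a KD (SE 0.12, adjusted p = 0.000118, limma), and its 3 groups did not overlap. Of all tested genes, 33.1% had no overlap in Hdac1/2 cKD against NC, 27.1% in Sin3a KD against NC and 39.7% in Hdac1/2 cKD against Sin3a KD. Tle3 had 1482 to 1832 in NC, 1039 to 1286 in Hdac1/2 cKD, with 1636 to 1696 in Sin3a KD. It fell by 0.49 against NC (SE 0.12, adjusted p = 0.0147, limma), a call lost without Hdac1/2 cKD replicate 1 (adjusted p = 0.055) or replicate 2 (0.0727) and with equal totals (0.0599). Like Tbx20, both had their lowest values in the Hdac1/2 cKD libraries.

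Aes, which encodes a short TLE family member that lacks the repeat domain of the others and can oppose them, had 213.6, 144.2 and 278.0 normalised counts in NC. Its Hdac1/2 cKD libraries had 504.3, 702.3 and 716.3, and its Sin3a KD libraries 149.2, 170.6 and 140.2. Aes rose by 1.62 against NC (SE 0.24, adjusted p = 0.000758, limma) and by 2.04 against Sin3a KD (SE 0.24, adjusted p = 0.000136, limma). Tle1 rose in both knockdowns: its values were 239 to 335 in NC, 421 to 590 in Hdac1/2 cKD, with 443 to 614 in Sin3a KD, with differences of 0.85 (SE 0.20, adjusted p = 0.0101, limma) and 0.84 (SE 0.20, adjusted p = 0.0203, limma). The second of these was lost without NC replicate 3 (adjusted p = 0.0593), Sin3a KD replicate 1 (0.103) or replicate 3 (0.0662), and with lane as a factor (0.141), and the first reached 0.05 without Hdac1/2 cKD replicate 3. Tle2 did not pass the filter.

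Of the BMP and SMAD genes, 18 of 21 in the table were tested, and 2 rose and 2 fell in Hdac1/2 cKD against NC, a share of 22.2% beside 15.6% of all tested genes. Among the ligands, Bmp2 and Bmp7 had at most 38.8 and 72.6 normalised counts, and Bmp4 and Bmp5 did not pass the filter. Bmp6 had 32.6 to 41.3 in NC, 16.01 to 20.9 in Hdac1/2 cKD, with 48.2 to 58.4 in Sin3a KD. It fell by 1.52 in Hdac1/2 cKD against Sin3a KD (SE 0.39, adjusted p = 0.0168, limma), while the differences from NC were -0.96 and 0.56 (adjusted p = 0.118 and 0.415). That call was lost without Hdac1/2 cKD replicate 1 (adjusted p = 0.0521), Sin3a KD replicate 1 (0.0729) or Sin3a KD replicate 3 (0.0531) and with lane as a factor (0.169). None of the tested receptors, Bmpr1a, Bmpr2, Acvr1, Acvr2a and Acvr2b, passed in any comparison.

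Among the signal transducers, Smad1 had 35.7, 70.9 and 45.1 normalised counts in NC, 93.1 to 132 in Hdac1/2 cKD, with 120 to 145 in Sin3a KD. Smad1 rose by 1.23 (SE 0.31, adjusted p = 0.0165, limma) and by 1.43 (SE 0.31, adjusted p = 0.0152, limma) against NC. The first call was lost without NC replicate 1 (adjusted p = 0.0574), Hdac1/2 cKD replicate 2 (0.0664) or replicate 3 (0.0707), and the second without NC replicate 1 (0.0537), Sin3a KD replicate 1 (0.072) or replicate 3 (0.0613). With lane as a factor neither held (adjusted p = 0.112 and 0.182). Smad5 had 72.1, 169 and 25.9 in NC, 226 to 280 in Hdac1/2 cKD, with 39.9 to 106 in Sin3a KD. It rose by 1.82 in Hdac1/2 cKD against NC (SE 0.57, adjusted p = 0.0484, limma) and by 2.06 against Sin3a KD (adjusted p = 0.0267); the first did not hold without any 1 library other than NC replicate 2 or Sin3a KD replicate 2 (adjusted p = 0.0555 to 0.133), and the second was lost without Hdac1/2 cKD replicate 1, 2 or 3 or Sin3a KD replicate 1 or 3 (0.0643 to 0.101). With lane as a factor both Smad5 calls were lost (adjusted p = 0.114 and 0.413).

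The feedback inhibitor Smad7 and the BMP target Id3 were lower in Hdac1/2 cKD. Smad7 had 693.2, 690.8 and 849.8 normalised counts in NC, 478.0, 443.1 and 385.7 in Hdac1/2 cKD, and 532.3, 762.7 and 625.2 in Sin3a KD. It fell by 0.77 against NC (SE 0.17, adjusted p = 0.00716, limma). Its fall of 0.54 against Sin3a KD (adjusted p = 0.0379) was lost without Hdac1/2 cKD replicate 1, 2 or 3 or Sin3a KD replicate 2 or 3 (adjusted p = 0.0544 to 0.153) and with lane as a factor (0.0915). Id3 had 1899, 1169 and 1398 in NC, 578.3, 595.8 and 537.8 in Hdac1/2 cKD, and 698.3, 800.4 and 399.4 in Sin3a KD. It fell by 1.35 (SE 0.24, adjusted p = 0.00241, limma) and 1.26 (SE 0.24, adjusted p = 0.00863, limma) against NC. The call in Sin3a KD was lost with lane as a factor (adjusted p = 0.105), without trend or robust variances (0.0692) and with NC replicate 1 and Sin3a KD replicate 1, each alone on its lane, left out (0.0825). Id1, Id2 and Id4, its relatives, passed in no comparison.

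Of 18 tested heart transcription factors and partners, 2 fell and none rose in Hdac1/2 cKD against NC, a share of 11.1% beside the background of 15.6%. Gata6, a zinc-finger factor of heart and endoderm that the morula expresses strongly, had 8314, 6889 and 7317 normalised counts in NC, 4987, 5676 and 5828 in Hdac1/2 cKD, with 7201 to 8870 in Sin3a KD. In Hdac1/2 cKD it fell by 0.45 against NC (SE 0.11, adjusted p = 0.0121, limma) and by 0.55 against Sin3a KD (SE 0.11, adjusted p = 0.0031, limma), and the first call was lost without Hdac1/2 cKD replicate 1 (adjusted p = 0.0621). With lane as a factor both were lost (adjusted p = 0.0546 and 0.0733). Gata4, which binds Tbx20 protein in the heart, had 445 to 672 in NC, 252 to 419 in Hdac1/2 cKD, with 269 to 411 in Sin3a KD. It fell by 0.80 in Hdac1/2 cKD (SE 0.23, adjusted p = 0.0314, limma), a call lost without NC replicate 1 (adjusted p = 0.0862), NC replicate 3 (0.0933), Hdac1/2 cKD replicate 2 (0.134) or replicate 3 (0.0827), and its difference in Sin3a KD was -0.72 (adjusted p = 0.0724). Lane as a factor (adjusted p = 0.117) and equal totals (0.0584) also ended the Gata4 call.

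Mef2d, a MADS-box factor, and Mkl1, a coactivator of serum response factor, passed against NC in Sin3a KD and not in Hdac1/2 cKD. Mef2d had 1648 to 2411 normalised counts in NC, 1724 to 2061 in Hdac1/2 cKD, with 1077 to 1360 in Sin3a KD. It fell by 0.74 in Sin3a KD (SE 0.15, adjusted p = 0.0106, limma), a call lost without Sin3a KD replicate 1 (adjusted p = 0.0532), and was higher by 0.71 in Hdac1/2 cKD than in Sin3a KD (adjusted p = 0.00502). Mkl1 had 370 to 655 in NC, 369 to 597 in Hdac1/2 cKD, with 218 to 256 in Sin3a KD. It fell by 1.06 in Sin3a KD (SE 0.23, adjusted p = 0.0144, limma), a call lost without Sin3a KD replicate 3 (adjusted p = 0.0631), and was higher by 1.02 in Hdac1/2 cKD than in Sin3a KD (adjusted p = 0.00735). With lane as a factor all 4 of these calls were lost, at adjusted p = 0.181 and 0.0719 for Mef2d and 0.138 and 0.126 for Mkl1. Hand1, a heart and trophoblast factor, had 1808 to 2837 over the 9 libraries and passed in no comparison. Nkx2-5, Mef2c, Hand2 and Irx4 had at most 7.06, 4.44, 10.6 and 1.78 in any library.

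**Figure D4:**
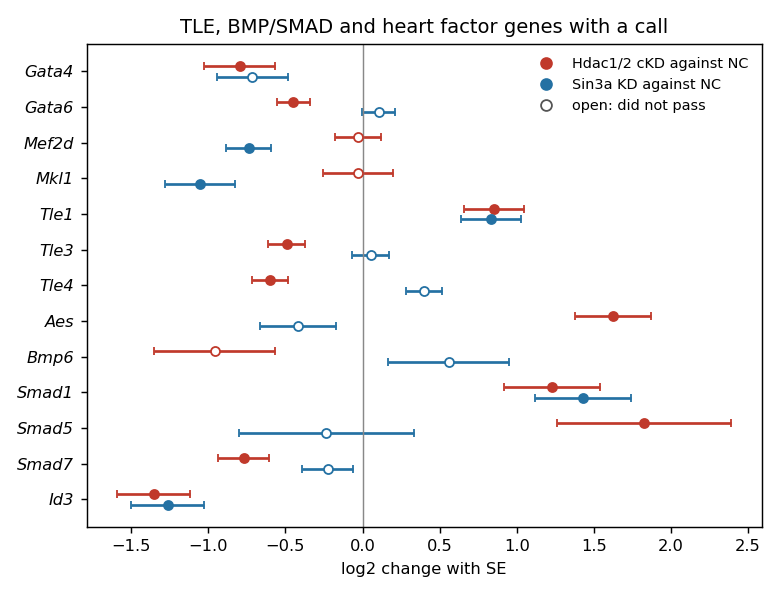
Difference from NC in log2(normalised count + 1), with its SE, for the genes of the TLE, BMP and SMAD, and heart factor lists that were called in any comparison, in Hdac1/2 cKD (red) and in Sin3a KD (blue); open points did not pass the test. The genes lie on both sides of 0 in Hdac1/2 cKD, from Id3 at -1.35 to Smad5 at 1.82.

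Genes that mark heart muscle or act downstream of Tbx20 in the heart were mostly scarce in the morula. Of 10 genes tied to Tbx20 in heart development, 9 were in the table, 4 were tested (Tbx2, Tbx5, Mycn and Lef1), and Tbx2 alone passed, in Hdac1/2 cKD against NC. Of 20 cardiac muscle markers, 19 were in the table and 7 were tested. The contractile genes Myl2, Myl7, Tnnt2, Tnni3 and Actc1 had at most 13.3 normalised counts in any library, and each was at 0 in 1 or more of them. Of the other sarcomere genes, Myh7, the slow myosin heavy chain, had 34.9 to 113 and passed in no comparison, and Myl4, an atrial light chain, had 1.52 to 29.4 and did not pass the filter. Summed over the list, the libraries had 782 to 1873 in NC; the Hdac1/2 cKD sums, 1170 to 1558, and the Sin3a KD sums, 756 to 1335, overlapped them, and Actn2, Ttn and Ryr2 made up most of the sums. Nppb, the natriuretic peptide B gene, rose in Hdac1/2 cKD from 24.1, 5.43 and 68.2 in NC to 206, 145 and 126, a difference of 2.81 (SE 0.68, adjusted p = 0.0142, limma), lost without Hdac1/2 cKD replicate 1 (adjusted p = 0.0612). Kcnh2, a potassium channel gene, fell in Sin3a KD, with 12.0 to 22.8 there and 39.1 to 80.4 in NC, a difference of -1.94 (SE 0.46, adjusted p = 0.0213, limma), lost without NC replicate 3 (adjusted p = 0.0639), Sin3a KD replicate 2 (0.0553) or replicate 3 (0.0817) and with lane as a factor (0.066). In Hdac1/2 cKD against Sin3a KD, Kcnh2 was higher by 2.92 (adjusted p = 0.000829, limma), a call that held in every alternative. Nppb was higher there by 3.14 (adjusted p = 0.00672, limma), a call lost only without the 2 libraries alone on their lanes (0.0517).

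Genes of the early embryo were abundant, with Pou5f1 at 13955 to 20930 normalised counts. Their lists moved in Hdac1/2 cKD as well. Of the tested markers, 4 of 7 for trophectoderm, 4 of 8 for inner cell mass and pluripotency, and 4 of 4 for primitive endoderm fell against NC (7.8% of all tested genes did), and 1, Fgf4, rose. In Sin3a KD against NC, 2 of 7, 1 of 8 and 0 of 4 fell (4.36% of all tested genes did). Some of these calls depended on 1 library or on lane, that of Pou5f1 in Hdac1/2 cKD among them (adjusted p = 0.078 without Hdac1/2 cKD replicate 1 and 0.0604 with lane as a factor, limma). Others held in every alternative. Among these, in Hdac1/2 cKD against NC, were Cdx2 of trophectoderm at -2.72 (adjusted p = 2.9e-06, limma), a larger fall than that of Tbx20, Tdgf1 of the pluripotency list at -1.44 (3.31e-05), and Dab2 of primitive endoderm at -1.04 (0.000732). The part of these markers in the Tbx20 level was not tested. Sperm markers had at most 4.34 in any library. Cumulus and granulosa cell markers, of which 8 of 11 were in the table, had sums of 25.0 to 61.6 in NC. These were 68.4 to 93.6 in the Hdac1/2 cKD libraries and 69.0 to 81.0 in the Sin3a KD libraries. Star and Foxl2 were the highest of them, and Cyp19a1 was at 0 in 7 of the 9 libraries. Both knockdown groups lay above NC in this sum of low values. For single tested genes, no overlap with NC was found for 33.1% in Hdac1/2 cKD and 27.1% in Sin3a KD. Only 2 of these markers were tested, and neither was called in any comparison. The part of such cells in the Tbx20 level was not tested.

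Of the genes around Tbx20 on chromosome 9, 1 of 3 tested was called lower in Hdac1/2 cKD than in NC, beside 7.8% of all tested genes. Within 500 kb of its start lie 6 other protein-coding genes, of which 4 were in the table and 3 were tested. Dpy19l1, 271 kb away, had 52.2 to 65.6 normalised counts in NC, 106 to 131 in Hdac1/2 cKD, with 50.4 to 91.7 in Sin3a KD, a difference of 0.96 in Hdac1/2 cKD against NC (SE 0.32, adjusted p = 0.0574). Herpud2, a ubiquitin-like domain gene 378 kb away on the other side, had 233 to 323 in NC, 144 to 181 in Hdac1/2 cKD, with 151 to 264 in Sin3a KD. It fell by 0.79 in Hdac1/2 cKD (SE 0.25, adjusted p = 0.0455, limma), a call lost without NC replicate 1 or 3, Hdac1/2 cKD replicate 1, 2 or 3 or Sin3a KD replicate 1 (adjusted p = 0.058 to 0.141). Sept7, a septin gene 478 kb away, had 1027 to 1268 in NC, 1134 to 1416 in Hdac1/2 cKD, with 638 to 890.5 in Sin3a KD. It fell by 0.63 in Sin3a KD against NC (SE 0.15, adjusted p = 0.0228, limma), a call lost without NC replicate 3 (adjusted p = 0.0704), Sin3a KD replicate 1 (0.1) or replicate 3 (0.104), and was higher by 0.81 in Hdac1/2 cKD than in Sin3a KD (adjusted p = 0.00267). With lane as a factor both Sept7 calls were lost (adjusted p = 0.166 and 0.0681), as was that of Herpud2 (0.185). The nearest gene in the table, Dpy19l2, did not pass the filter, with at most 30.5.

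Several genes had nearly the same profile as Tbx20 over the 9 libraries. Likeness was measured by Pearson's r of log2(normalised count + 1) over the 9 libraries, which share 3 groups, for 9281 tested genes with a mean of at least 50; the median r was 0.02, and 90 genes (0.970%) reached 0.95. The 10 highest, predicted gene models left out, were Ypel2, Slc22a13b-ps, Cat, Prep, Gfpt1, Rnf115, Smim13, Smpd1, Uhmk1 and Ctsa, with r from 0.983 to 0.990. Each was lowest in Hdac1/2 cKD, at 26.6% (Cat) to 67.9% (Rnf115) of the NC mean. With 3 libraries a group, such an r mostly reflects the gap between Hdac1/2 cKD and the rest. Without NC replicate 3, 8 of the 10 were again among the 10 highest, and by Spearman's rank correlation, which weighs the order within groups more, 1 of the 10.

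Cat, which encodes the peroxisomal enzyme catalase, had 595.0, 726.8 and 591.6 normalised counts in NC, 159.8, 188.8 and 160.6 in Hdac1/2 cKD, and 657.8, 741.1 and 658.7 in Sin3a KD. Ypel2, with the highest r, had 5899, 4972 and 4617 in NC, 2281, 2145 and 2244 in Hdac1/2 cKD, and 5717, 5932 and 5268 in Sin3a KD. As for Tbx20, NC and Sin3a KD overlapped in both genes and Hdac1/2 cKD overlapped neither. Both genes were picked for their likeness to Tbx20 over these libraries, so this pattern follows largely from the choice. Of all tested genes, 33.1% had no overlap in Hdac1/2 cKD against NC and 39.7% in Hdac1/2 cKD against Sin3a KD. Smpd1 and Ctsa encode lysosomal enzymes, Prep a peptidase, Gfpt1 the rate-limiting enzyme of hexosamine synthesis and Rnf115 a ubiquitin ligase. Promoters were found for 8 of the 10 genes, 10 windows in all, which held 8 to 38 CpG dinucleotides (median 15.5), each above the median of 7 over all promoters. The share of all promoters with fewer CpG ran from 51.4% for a window of Ctsa to 95.0% for Gfpt1. CpG were not counted for the other genes compared for likeness, so this is not read as a trait of genes like Tbx20.

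**Figure D5:**
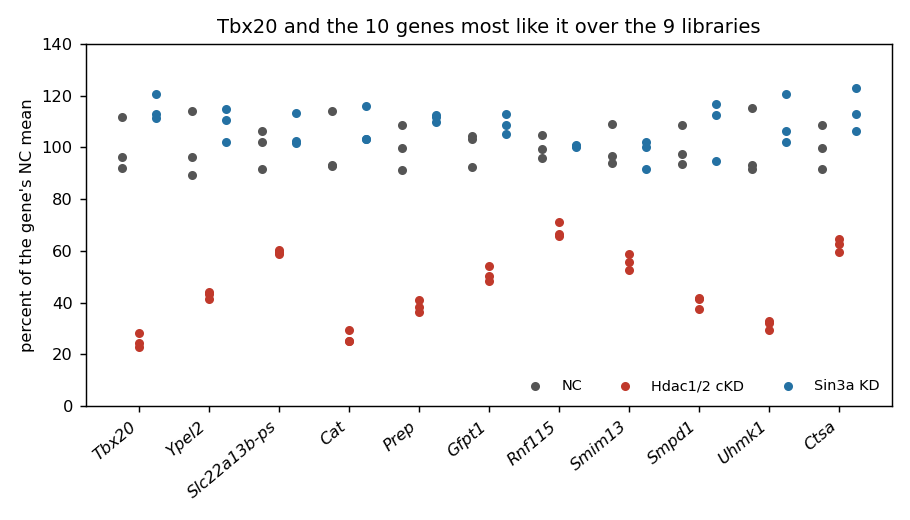
Normalised counts of Tbx20 and the 10 genes most like it, each divided by its own NC mean and given as a percent, for the 9 libraries by group (points, one per library). The Hdac1/2 cKD means run from Tbx20 at 25.2% to Rnf115 at 67.9% of the NC mean, and every gene is lower there than in both other groups. The 10 genes were picked for their likeness to Tbx20 over these libraries, so the shared pattern follows largely from the choice.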

How the data were processed

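The authors deposited signal values in the form of normalised counts: per the submitters' processing notes, reads were counted with Salmon against GRCm38 and scaled with DESeq2; for both tools the version, and for Salmon the annotation, is not given in the sources used here. Polyadenylated RNA was selected and amplified by PCR without stated molecular identifiers or strand, so overlapping antisense reads cannot be told apart. Values near close paralogs depend on how reads were shared. The library totals were 11.9 M to 13.5 M normalised counts. Low values were compared with multiples of 1 step: 65.5% to 78.9% lay within 0.1 of a whole step, so whole reads were not recovered and no count test was run; depth was estimated from the step. One row without a name (0.00543% to 0.00896% of a library) was left out.

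Genes with at least 10 normalised counts in at least 3 of 9 libraries (13343) were fitted as log2(normalised count + 1), which understates changes of low genes, in limma 3.58.1 (R 4.3.3) with trend and robust variances. All 9 libraries entered with 1 mean per group (6 residual degrees of freedom), Benjamini-Hochberg adjustment ran over the 13343 genes in each comparison, and an adjusted p below 0.05 made a call; tests were two-sided. The script was tested on simulated data. Coordinates come from GENCODE vM21, in which 19072 symbols matched exactly 1 gene, and promoters from RefSeq (GRCm38.p6). Values per kilobase divide the normalised count by the longest annotated transcript.

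Tbx20, the gene lists and the rules were chosen with earlier results of these data known. Named were every T-box member, tested protein-coding genes within 500 kb of the Tbx20 start, and the 10 genes with the highest Pearson correlation. From each other list the called genes were named, up to the 6 with the lowest adjusted p, but most early embryo markers were only counted. A few further members are named for their role. Same-numbered libraries of different groups did not deviate together (correlations -0.02 to 0.06 over 9 pairs), so replicate numbers were not taken as pairs. Alternatives were another pseudocount, other filters, equal totals, no trend or robust variances, lane as a factor, only the 2 groups compared, a replicate block, and each library left out; leaving out the 2 libraries alone on their lanes was added after seeing the data.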

Additional observations from a re-analysis of the deposited data

How the results depend on the processing

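The difference of Tbx20 ran over the alternatives from -2.07 to -1.87 for Hdac1/2 cKD against NC. It ran from 0.15 to 0.32 for Sin3a KD against NC and from -2.29 to -2.13 for Hdac1/2 cKD against Sin3a KD. Tbx20 was chosen for its low level in Hdac1/2 cKD, so these ranges describe the selected values and lend them no support. In all, 62 calls were followed through the alternatives, calls of early embryo markers among them, most of which are counted above but not named. Of these 62, 25 held in every alternative, 37 were lost in at least 1, and 0 changed direction. The unnamed markers supply part of the 25, so that share does not describe the named genes alone. Lane as a factor lost 29 of the 62, leaving out trend and robust variances 25, leaving out the 2 libraries alone on their lanes 23, and any other setting at most 14.

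Counts of calls moved more. Without trend or robust variances, the genes called in Hdac1/2 cKD against NC went from 2083 to 1369 and the T-box genes other than Tbx20 from 3 to 1; in Sin3a KD against NC all genes went from 1062 to 36 and the pathway genes from 5 to 0. With lane as a factor, T-box calls in Hdac1/2 cKD against NC were 1, in Sin3a KD against NC all genes were 94, T-box genes 1 and pathway genes 0. For Hdac1/2 cKD against Sin3a KD the same setting took all genes from 2304 to 1002 and pathway genes from 9 to 2. Without the 2 libraries alone on their lanes the 3 comparisons called 1314, 49 and 1390 genes, with 1 T-box gene in the first and 0 pathway genes in the second. With only the 2 groups compared in the fit, Sin3a KD against NC called 611 genes and Hdac1/2 cKD against Sin3a KD called 3 T-box genes, where the fit of all groups called 1. The causes were not tested.

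Leaving out 1 library at a time gave 1267 to 2175, 337 to 1537 and 1427 to 2759 genes in the 3 comparisons, 0 to 3, 0 to 0 and 1 to 1 T-box genes, and 6 to 10, 2 to 7 and 6 to 11 pathway genes. With replicate number as a block, which the libraries do not bear out as a pairing, 2140, 1046 and 2372 genes were called, with 3, 0 and 1 T-box genes and 11, 6 and 9 pathway genes. Scaling to equal totals moved the median difference of all genes from 0.03 to 0.15 in Hdac1/2 cKD against NC and from 0.03 to 0.12 in Sin3a KD against NC. Values below about 50 normalised counts rest on few reads at 8.37 M to 16.8 M reads per library.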

Other observations

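Genes with the opposite profile to Tbx20 were also present, and these were looked up after their values were seen. Of 9281 genes, 56 (0.603%) had a Pearson r with Tbx20 of -0.95 or below over the 9 libraries, which share 3 groups. The most opposite was Rdx, the gene of radixin, a linker between actin and the membrane, with r = -0.995. Rdx had 651.3, 727.9 and 664.8 normalised counts in NC, 2170.1, 1914.6 and 2104.9 in Hdac1/2 cKD, and 515.9, 595.7 and 580.2 in Sin3a KD.

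The next were Tbl1x, a subunit of the NCoR corepressor complex, at 648 to 677 in NC and 1419 to 1656 in Hdac1/2 cKD, and Ccnd1, the gene of cyclin D1, at 180.1 to 276 in NC and 1896 to 2524 in Hdac1/2 cKD. They were followed by Uhrf1, a reader of hemimethylated DNA, at 272 to 351 in NC and 1367 to 1529 in Hdac1/2 cKD, and Klhdc3, at 429 to 443 in NC and 531 to 548 in Hdac1/2 cKD. In Sin3a KD the values were 526 to 592 for Tbl1x, 203 to 330.3 for Ccnd1, 210.1 to 336 for Uhrf1 and 404 to 423 for Klhdc3. These values are a description of the libraries, with no test.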
